A study of Mus musculus with 8 samples.

Results

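The chemokines and chemokine receptors of the liver were described in 8 mice, as the genes whose names on the array begin with Ccl, Cxcl, Ccr or Cxcr followed by a number. The array held 50 such genes on 65 probes, among 34836 gene names on 55681 probes in all. The mice were males of 2 inbred strains, 4 NZO (NZO/HiBomDife, an obese and diabetes susceptible strain) and 4 B6 (C57BL/6, a lean and diabetes resistant strain). All 8 were 6 weeks old and had been fed a high-fat diet with 45% fat, so no group on another diet was compared. Each array held the RNA of whole liver of 1 mouse, and the strains differ throughout the genome, so a difference between them cannot be assigned to 1 locus. The hepatocyte markers Alb, Ttr, Apoa1, Cps1 and Tat were above background on all 8 arrays, and 0 of the 5 differed past the thresholds given below.

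Chemokines are small secreted proteins that guide leukocytes along a concentration gradient. They bind G protein-coupled receptors on the surface of the migrating cell, and the family is divided into CC and CXC ligands by the spacing of the first cysteines. In the liver they are made by hepatocytes, Kupffer cells, sinusoidal endothelium, stellate cells and bile duct cells, and the receptors are carried mainly by the leukocytes they attract. Many inflammatory chemokine genes, Cxcl1 and Ccl2 among them, are known targets of NF-kB, and Cxcl9, Cxcl10 and Cxcl11 are induced by interferon gamma.

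A level is the log2 of the processed signal of a probe, with the 75th percentile of its array set to 0, and each gene is given by its brightest probe. Levels were compared between mice for 1 probe at a time, not between genes. A gene passed the filter when the scanner software marked its probe as well above background in every mouse of one strain or of both. Of the 50 members, 26 passed and 24 did not. Of the 26, 23 were above background on all 8 arrays, and Ccr2 and Ccr9 passed only through B6 and Cxcl13 only through NZO. The strains were compared with limma over all 20158 genes that passed, and a difference was called at an unadjusted p of at most 0.05 with a log2 fold change of at least 0.7 in either direction. In bulk tissue, fewer cells of a type and less RNA per cell cannot be told apart.

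Among the 26 members, 3 were higher in NZO, which were Ccr3, Cxcl13 and Ccl19, where 5.24% of all genes tested were higher. Lower in NZO were 6 members, which were Cxcl1, Ccl2, Ccl27a, Ccr7, Cxcr3 and Ccr9, where 6.62% of all genes tested were lower. With Benjamini-Hochberg adjusted p-values over all genes, 3 members were higher against a background of 4.44% and 5 were lower against 5.02%, Ccr9 being the one lost. The strains did not overlap in 12 members, NZO being on top in 3 of them (11.9% of genes) and B6 in 9 (10.5% of genes). The median log2 fold change of the 26 members was -0.14, and that of all genes tested was 0.03. A gene that passed through 1 strain alone, as Cxcl13 and Ccr9 did, was admitted by the strain in which it was high. Among the 23 members above background on all 8 arrays, 2 were higher (4.55% of all such genes) and 5 were lower (4.83% of all such genes). Of the 9 differences, those of Ccr3, Cxcl1 and Ccl27a were also called with normexp background correction, under which 1 member was higher (2.51% of all genes) and 2 were lower (2.34% of all genes).

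**Figure D1:**
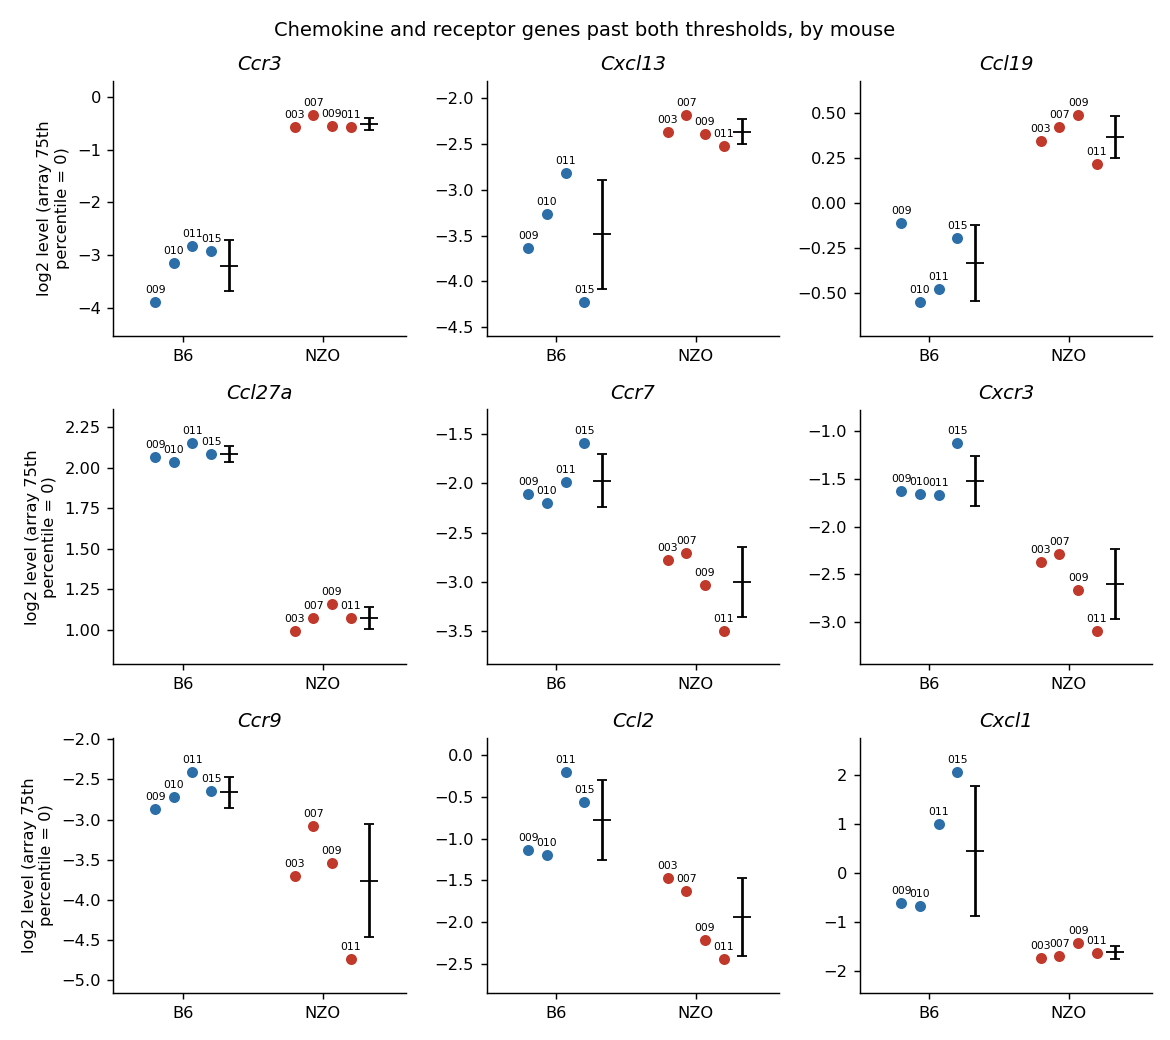
Log2 level of the 9 called members in each mouse, with points labelled by mouse number and the bar giving the mean and SD of 4 arrays; each panel has its own y axis. The strains do not overlap in any of the 9 panels, and the B6 values of Cxcl1 spread from -0.67 to 2.07.

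The stretches of 250 bases before the transcription start are shown for the members with the largest decrease (Cxcl1) and the largest increase (Ccr3) among those that passed the filter, and for Cxcl10, a well-known inflammatory ligand whose level was not called different. They were taken from RefSeq on GRCm38.p6, at chr5:90890995-90891244 on the plus strand for Cxcl1, chr9:124021721-124021970 on the plus strand for Ccr3 and chr5:92348890-92349139 on the minus strand for Cxcl10, and are written 5′ to 3′. Capitals mark matches to the NF-kB consensus of 10 letters, searched on both strands, so that a palindromic site can count on each.
Cxcl1: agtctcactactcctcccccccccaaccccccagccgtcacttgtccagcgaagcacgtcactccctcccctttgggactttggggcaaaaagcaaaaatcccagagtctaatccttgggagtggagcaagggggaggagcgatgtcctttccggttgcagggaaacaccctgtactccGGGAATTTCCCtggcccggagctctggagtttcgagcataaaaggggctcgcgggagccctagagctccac
Ccr3: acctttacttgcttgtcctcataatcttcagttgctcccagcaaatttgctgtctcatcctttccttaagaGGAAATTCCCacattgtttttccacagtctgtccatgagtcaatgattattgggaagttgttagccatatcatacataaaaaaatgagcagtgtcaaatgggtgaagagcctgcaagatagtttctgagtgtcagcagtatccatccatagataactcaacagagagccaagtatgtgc
Cxcl10: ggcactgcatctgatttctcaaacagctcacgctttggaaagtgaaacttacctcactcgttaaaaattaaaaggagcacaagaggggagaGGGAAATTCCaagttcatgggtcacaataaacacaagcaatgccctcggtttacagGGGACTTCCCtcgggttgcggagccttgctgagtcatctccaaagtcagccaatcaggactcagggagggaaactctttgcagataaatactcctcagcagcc
The Cxcl1 stretch held 2 matches that overlap in 1 site, that of Cxcl10 held 2 separate matches and that of Ccr3 held 1. Over all 32851 stretches of this length in the table, 3.90% held at least 1 match. For 35 of the 50 members at least 1 stretch was listed, 39 stretches in all. Of the called members, 7 had a stretch, and Ccl2 and Ccr7 had none, so they were not searched. The consensus was found in 8 of the 39, from 8 members, which were Cxcl1, Cxcl2, Cxcl3, Cxcl10, Ccl9, Ccl20, Ccr3 and Ccr6. The levels of the 8 went different ways, with Cxcl1 lower in NZO, Ccr3 higher, Ccl9 and Cxcl10 not called, Ccr6 not passing the filter, and Cxcl2, Cxcl3 and Ccl20 at background on all 8 arrays. The interferon-response letters GAAANNGAA, searched on both strands, were found in 8 of the 39 stretches and in 7.13% of all stretches. These came from 8 members, which were Ccl1, Ccl3, Ccl19, Ccr2, Cxcl9, Cxcl10, Cxcl14 and Cxcr1. The AP-1 letters TGANTCA, a palindrome, were found in 5 of the 39 stretches and in 6.75% of all stretches. These came from 5 members, which were Ccl9, Ccl27a, Ccr3, Ccr4 and Cxcl10. A match of letters is a description of the stretch and not evidence of a bound site.

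Of the members that are CXC ligands with the ELR motif, which attract neutrophils through Cxcr2, only Cxcl1 passed the filter. Its levels were -1.74, -1.70, -1.43 and -1.64 in NZO 003, 007, 009 and 011, and -0.62, -0.67, 1.00 and 2.07 in B6 009, 010, 011 and 015. The NZO mice lay close together and below every B6 mouse, and B6 011 and 015 stood well above the other 2 B6 mice. The level was 4.21-fold lower in NZO (log2 fold change -2.07, SE 0.578, adjusted p = 0.0479, limma), and without B6 015 the log2 fold change was -1.53. The 60-base probe lies at chr5:91321845-91321904 in the mm9 coordinates of the array. Cxcl2, Cxcl3, Cxcl5 and Cxcl15, the other ELR ligands among the members, were at background on all 8 arrays. Cxcr2, the receptor of Cxcl1 on neutrophils, was above background only in B6 011, with levels of -5.84, -5.34, -5.27 and -5.19 in NZO 003, 007, 009 and 011 and -5.86, -6.14, -3.64 and -4.69 in B6 009, 010, 011 and 015. B6 011 was also a mouse with high Cxcl1. The Cxcr2 levels of all other mice, B6 015 among them, were not well above background, so their order cannot be read. Cxcr1 was at background on all 8 arrays.

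Of the CC ligands that act on Ccr2 and Ccr3, Ccl2, the main attractant of monocytes, was lower in NZO. Its probe, printed 10 times on each array, gave -1.47, -1.63, -2.21 and -2.45 in NZO 003, 007, 009 and 011, and -1.14, -1.20, -0.20 and -0.57 in B6 009, 010, 011 and 015. B6 011 and 015 were again the highest, and the gap between the lowest B6 mouse and the highest NZO mouse was small beside the spread in each strain. The level was 2.24-fold lower in NZO (log2 fold change -1.16, SE 0.295, adjusted p = 0.0334), from a probe at chr11:81850650-81850709 (mm9). Ccr2, the receptor of Ccl2 on monocytes, was above background in 2 NZO and 4 B6 mice, with levels of -3.93, -3.47, -3.56 and -4.14 in NZO 003, 007, 009 and 011 and -3.71, -3.88, -3.25 and -3.42 in B6 009, 010, 011 and 015. The strains overlapped for Ccr2, and its log2 fold change of -0.21 had a 95% confidence interval from -0.66 to 0.24. This is a description only, since the gene passed the filter through B6 alone. With each array set at no less than its faintest level found above background, the Ccr2 difference was -0.16. Ccl7 and Ccl8, relatives of Ccl2, did not pass the filter. Ccl7 was at background in all NZO mice and above it in 3 B6 mice, with levels from -6.22 to -5.90 in NZO and from -4.32 to -3.32 in B6. The B6 level was at least 1.23-fold higher, where the bound sets each NZO array at its lowest level found above background. Ccl8 was above background in 2 B6 mice and in no NZO mouse, and its bound was 1.05-fold higher in B6. Ccl12 was above background in 1 B6 mouse only, and Ccl26 in none.

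Ccr3, the receptor of the eotaxins that is carried by eosinophils, had the largest difference of the 26 members that passed the filter. Its levels were -0.57, -0.34, -0.55 and -0.57 in NZO 003, 007, 009 and 011, and -3.90, -3.16, -2.83 and -2.93 in B6 009, 010, 011 and 015. The 4 NZO mice were nearly equal and far above the B6 mice, of which B6 009 was the lowest. The level was 6.48-fold higher in NZO (log2 fold change 2.70, SE 0.225, adjusted p = 0.000132), and it was called under all 19 alternatives, with log2 fold changes from 1.06 to 2.82. The gene was represented by a single probe, at chr9:123945225-123945284 (mm9), and whether the probe hybridises equally to both strains was not tested. Its ligand Ccl24, an eotaxin, gave 0.53, 0.92, 0.49 and 0.50 in NZO 003, 007, 009 and 011 and 0.33, 0.55, 0.86 and 0.97 in B6 009, 010, 011 and 015. Ccl24 overlapped between the strains, with a log2 fold change of -0.07 and a confidence interval from -0.46 to 0.32. Ccl11, the other eotaxin of the pair list, was above background only in NZO 011, with levels of -6.13, -6.17, -5.86 and -3.16 in NZO 003, 007, 009 and 011 and -6.52, -6.40, -6.13 and -4.32 in B6 009, 010, 011 and 015. The receptor thus differed past the thresholds, its detected ligand Ccl24 was not called, and Ccl11 could be read in 1 mouse only.

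Of the remaining inflammatory CC ligands, Ccl4, Ccl5, Ccl6 and Ccl9 passed and 0 were called. Ccl6, which is found in rodents and attracts macrophages, was above the B6 range in 3 of 4 NZO mice, with levels from 2.17 to 2.71 in NZO and from 1.82 to 2.21 in B6. Its log2 fold change of 0.54 (SE 0.145, adjusted p = 0.0422) stayed under the fold threshold. Ccl9, a related rodent ligand of Ccr1, had levels from 4.14 to 4.47 in NZO and from 3.98 to 4.20 in B6, with a log2 fold change of 0.26 and an adjusted p of 0.157. Neither gene met both thresholds. Ccl5, an attractant of T cells, had a log2 fold change of -0.15 with a confidence interval from -0.59 to 0.30, and 1 mouse, B6 015, stood above all others at 2.05. Ccl4, an attractant of T cells and monocytes, had a log2 fold change of -0.32 with a confidence interval from -0.76 to 0.13. Both overlapped between the strains. Ccl3, a further ligand of this kind, was above background in 2 NZO and 1 B6 mice and did not pass, and Ccr1 and its close relative Ccr1l1 were at background on all 8 arrays.

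Ccl19 and its receptor Ccr7, which bring T cells and mature dendritic cells into lymphoid tissue, went in opposite directions. Ccl19 gave 0.34, 0.42, 0.49 and 0.22 in NZO 003, 007, 009 and 011, and -0.11, -0.55, -0.48 and -0.20 in B6 009, 010, 011 and 015. All NZO mice were above all B6 mice by a small margin. The level was 1.63-fold higher (log2 fold change 0.70, SE 0.127, adjusted p = 0.00736), which lies just at the fold threshold. Its other probes differed the same way, by 0.96 and 0.79. The brightest probe lies at chr4:42250105-42250164 (mm9). The mouse gene table also lists the copies Ccl19-ps1, Ccl19-ps2 and Ccl19-ps3, and the share of their transcripts in the signal was not tested, so the gene is named with that uncertainty. Ccr7 gave -2.78, -2.70, -3.03 and -3.49 in NZO 003, 007, 009 and 011, and -2.10, -2.20, -1.99 and -1.60 in B6 009, 010, 011 and 015. Every NZO mouse was below every B6 mouse, NZO 011 being the lowest and B6 015 the highest. The Ccr7 level was 2.04-fold lower in NZO (log2 fold change -1.03, SE 0.204, adjusted p = 0.0113), from a probe at chr11:99005551-99005610 (mm9). Ccl21a, the other ligand of Ccr7, was not found by name on the array.

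Ccl25 and its receptor Ccr9, known from thymus and small intestine, both had lower levels in every NZO mouse than in any B6 mouse, though only Ccr9 met the thresholds. Ccr9 gave -3.70, -3.07, -3.54 and -4.74 in NZO 003, 007, 009 and 011, and -2.87, -2.71, -2.40 and -2.64 in B6 009, 010, 011 and 015. The strains did not overlap, but Ccr9 was above background in only 2 NZO mice, so the NZO mean holds values near the limit of detection. The mean level was 2.15-fold lower (log2 fold change -1.11, SE 0.32), a description only, since the gene passed the filter through B6 alone. With each array set at no less than its faintest level found above background, the difference was -0.91. The probe lies at chr9:123690334-123690393 (mm9). Ccl25 gave 0.68, 0.10, 0.57 and 0.57 in NZO 003, 007, 009 and 011, and 1.08, 1.14, 1.14 and 1.06 in B6 009, 010, 011 and 015. The B6 mice were nearly equal and all above the NZO mice. Its log2 fold change of -0.63 (SE 0.135, adjusted p = 0.0164) stayed under the fold threshold, and its other passing probes gave -0.55 and -0.17.

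Ccl27a, an attractant of skin-homing T cells through Ccr10, had the smallest spread within the strains of the 9 called members. It gave 1.00, 1.07, 1.16 and 1.08 in NZO 003, 007, 009 and 011, and 2.07, 2.04, 2.15 and 2.09 in B6 009, 010, 011 and 015. The level was 2.01-fold lower in NZO (log2 fold change -1.01, SE 0.0814, adjusted p = 0.000113), with strains clearly apart. Its brightest probe lies at chr4:41716345-41716404 (mm9). The second probe of the gene differed by -1.05 and the third by 0.30, so the probes disagreed, and with the mean over the probes the log2 fold change was -0.58. The gene table lists the neighbouring copy Ccl27b, whose part in the signal was not tested. Ccr10 was above background in 2 NZO and 1 B6 mice, with levels of -5.99, -4.27, -3.72 and -3.20 in NZO 003, 007, 009 and 011 and -4.93, -3.27, -4.45 and -4.75 in B6 009, 010, 011 and 015, which overlapped. Ccl28, the second ligand of Ccr10 and a product of mucosal epithelium, was above background in 3 NZO mice and no B6 mouse. Its levels were -4.12, -3.04, -2.83 and -1.58 in NZO 003, 007, 009 and 011, and -5.61, -6.16, -5.74 and -6.02 in B6 009, 010, 011 and 015. The NZO level was at least 2.64-fold higher; the gene did not pass the filter, so it was not among those tested.

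Of the remaining CC ligands and receptors of lymphocytes, Ccl1 and its receptor Ccr8 passed without a call. Ccl1 had a log2 fold change of -0.06 with a confidence interval from -0.51 to 0.40, and Ccr8 one of 0.32 with an interval from -0.40 to 1.04. The strains overlapped for both. Ccr6, the receptor of Ccl20 on B cells and T cells, was above background in 2 NZO and 3 B6 mice, and Ccl20 itself in none. Ccl17, a ligand of Ccr4, was above background in 1 B6 mouse, and Ccl22 and Ccr4 in none.

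Cxcr3, the receptor of activated T cells and NK cells for the interferon-inducible ligands, was lower in NZO, while its ligands were not called. Cxcr3 gave -2.37, -2.28, -2.66 and -3.09 in NZO 003, 007, 009 and 011, and -1.63, -1.66, -1.67 and -1.13 in B6 009, 010, 011 and 015. The strains did not overlap, and B6 015 stood above the other B6 mice, which were nearly equal. The level was 2.11-fold lower (log2 fold change -1.08, SE 0.206, adjusted p = 0.00941), from a probe at chrX:98926920-98926979 (mm9). Cxcl9 gave 1.03, 1.37, 0.95 and 0.70 in NZO 003, 007, 009 and 011, and 1.32, 1.37, 1.12 and 2.61 in B6 009, 010, 011 and 015. Again B6 015 was high, and the other 7 mice overlapped. The log2 fold change of Cxcl9 was -0.59 with a confidence interval from -1.33 to 0.16, and -0.25 without B6 015. Cxcl10 gave 1.73, 1.40, 1.38 and 1.69 in NZO 003, 007, 009 and 011, and 1.06, 1.41, 1.53 and 1.99 in B6 009, 010, 011 and 015. Its log2 fold change was 0.05, with an interval from -0.40 to 0.51 and the strains overlapping. Cxcl11 gave 8.92, 9.11, 9.49 and 9.61 in NZO 003, 007, 009 and 011, and 9.19, 9.37, 9.30 and 9.43 in B6 009, 010, 011 and 015. Each of its 2 probes was close to equal in the strains, with differences of -0.04 and -0.01. The probes disagreed in level, however. The brightest had means of 9.28 in NZO and 9.32 in B6, and the other 1.56 and 1.57. Whether the bright signal comes from Cxcl11 was not tested, and the gene table lists Cxcl11 as a transcribed pseudogene on the C57BL/6J assembly.

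Cxcl13, the ligand of Cxcr5 that attracts B cells to follicles, had higher levels in NZO. It gave -2.37, -2.18, -2.39 and -2.52 in NZO 003, 007, 009 and 011, and -3.64, -3.27, -2.81 and -4.23 in B6 009, 010, 011 and 015. The NZO mice lay close together, and the B6 mice spread widely below them, with B6 015 not above background. The mean level was 2.17-fold higher in NZO (log2 fold change 1.12, SE 0.273). Because the gene passed the filter through NZO alone, the strain in which it was high, the difference is given as a description, and it was 1.07 with each array at no less than its faintest level found above background. The probe lies at chr5:96389861-96389920 (mm9). Cxcr5 was above background in 1 B6 mouse only, with levels of -6.08, -6.00, -5.00 and -5.74 in NZO 003, 007, 009 and 011 and -4.58, -4.04, -4.08 and -5.54 in B6 009, 010, 011 and 015.

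Cxcl16 and its receptor Cxcr6, which hold natural killer T cells and T cells in the liver sinusoids, were both lower in every NZO mouse than in every B6 mouse, without a call. Cxcl16 had levels from -0.76 to -0.41 in NZO and from -0.29 to -0.06 in B6, with a log2 fold change of -0.37 (SE 0.108, adjusted p = 0.0575). Cxcr6 had levels from -1.50 to -1.18 in NZO and from -1.13 to -0.44 in B6, with a log2 fold change of -0.51 (SE 0.159, adjusted p = 0.0726), and its second probe gave -0.32. Both differences were smaller than the fold threshold. Cxcl12, a ligand that retains blood stem cells and lymphocytes, had a log2 fold change of 0.24 with an interval from -0.04 to 0.51, and its second probe gave -0.21. Cxcl14, which attracts mononuclear cells, had one of 0.22 with an interval from -0.54 to 0.97. Cxcr4, the receptor of Cxcl12, and Cxcl17 were at background on all 8 arrays.

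**Figure D2:**
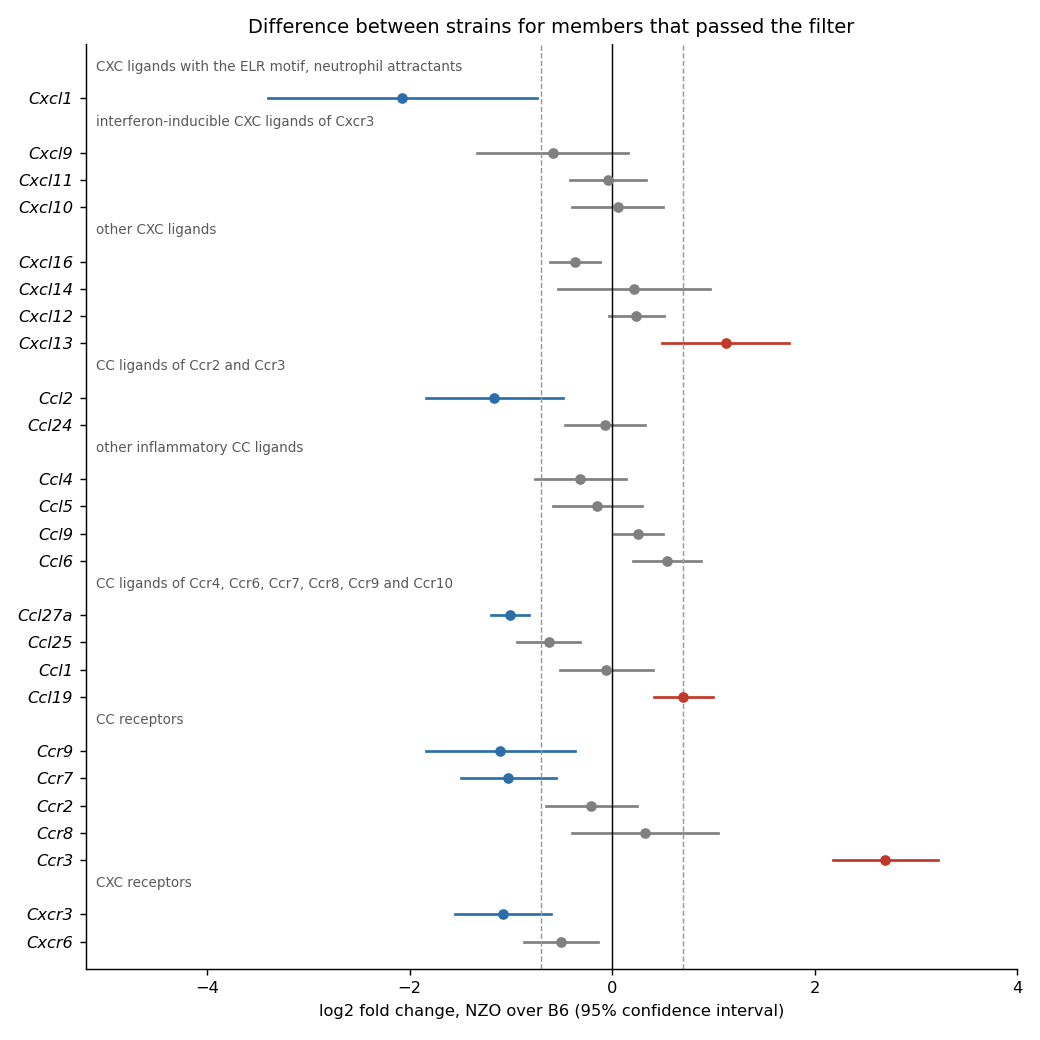
Log2 fold change of NZO over B6 with its 95% confidence interval for 25 of the 26 members that passed, grouped by role, with red for higher, blue for lower and grey for not called; dashed lines mark the thresholds at -0.7 and 0.7. The receptor Ccr3 at 2.70 and the ligand Cxcl1 at -2.07 lie farthest from 0.

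The members were not spread evenly over the mice of a strain. The highest B6 level was that of B6 015 in 13 of the 26 members (25.7% of all genes tested), of B6 011 in 10 (31.8% of all genes), of B6 009 in 3 (19.4%) and of B6 010 in 0 (23.2%). B6 009 held the lowest in 11 (23.8% of all genes). The highest NZO level was that of NZO 007 in 14 of the 26 members (22.9% of all genes), of NZO 009 in 5 (21.4%), of NZO 003 in 4 (37.0%) and of NZO 011 in 3 (18.6%). NZO 011 held the lowest in 12 (18.5% of all genes). The mean deviation of the 26 members from the mean of the strain was 0.24 in B6 015 and 0.11 in B6 011, and -0.14 in B6 010 and -0.21 in B6 009. In NZO it was 0.17 in NZO 007 and -0.13 in NZO 011. NZO 007 also had the highest summed level of skeletal muscle markers, 4.15 on the log2 scale, and B6 010 followed with 2.51, where the other 6 mice lay between -2.88 and 0.49. The brightest probe of the list was that of Myh4, a muscle myosin, and the part of muscle in the members' levels was not tested. Without NZO 007, 2 members were higher (5.47% of all genes) and 6 lower (7.43%), and without B6 015, 3 were higher (5.64%) and 6 lower (6.15%).

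**Figure D3:**
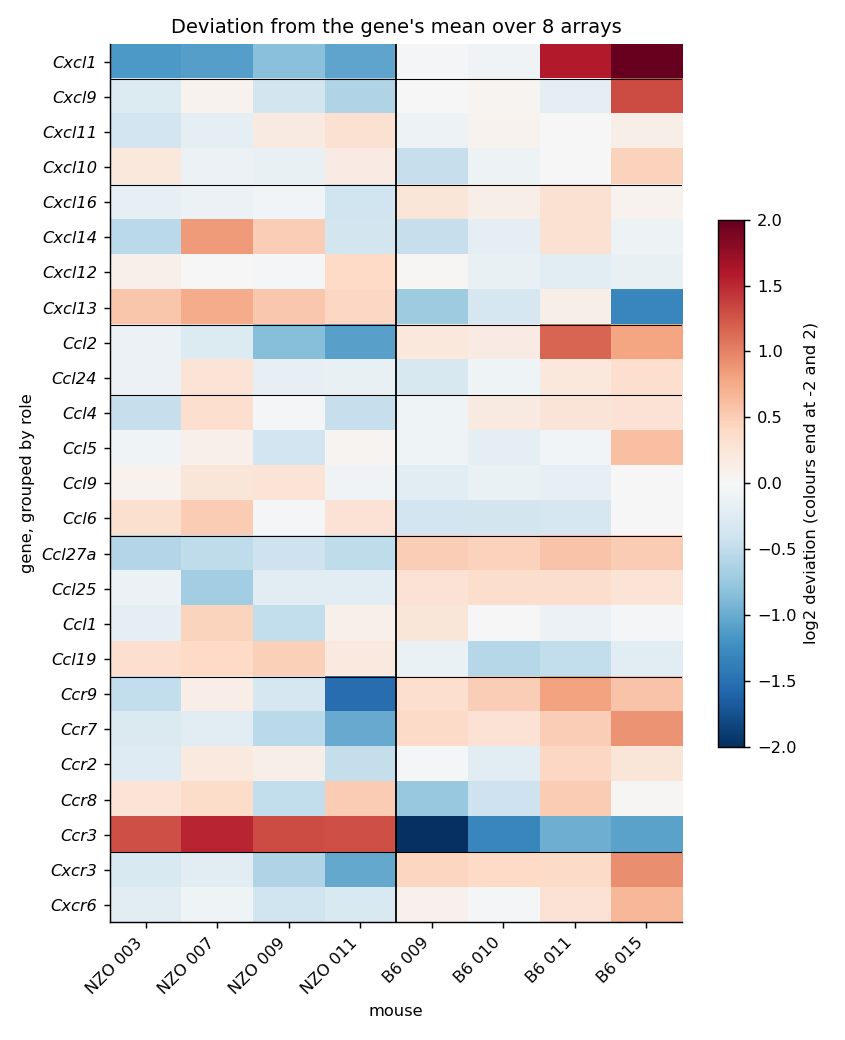
Deviation of each member's log2 level from its mean over the 8 arrays, with mice in columns and 25 of the 26 members that passed in rows grouped by role; colours end at -2 and 2. The columns of B6 011 and B6 015 are red for Cxcl1 and Ccl2, and that of B6 015 also for Cxcl9. For Cxcr3 every B6 mouse lies above the mean, B6 015 the farthest.

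The mice were hybridised on 5 slides, and scanning took 2 days. Slide 1 held NZO 003 with B6 010 and 015, and scan day 2 held NZO 007 with B6 009 and 011. The strains did not overlap in any of the 9 called members, so their direction within each scan day and within slide 1 was fixed. Only the size of the difference could change. For Ccr3 the log2 fold change was 2.48 on scan day 1, 3.03 on day 2 and 2.48 within slide 1, and for Cxcl1 it was -2.31, -1.88 and -2.44. For Ccl2 it was -1.16, -0.96 and -0.59, and for Ccl27a -0.98, -1.04 and -1.07. Of these 4 members, Ccl2 alone had a clearly smaller difference within slide 1. For Ccr7 they were -1.20, -0.65 and -0.88, for Cxcr3 -1.31, -0.63 and -0.97 and for Ccr9 -1.31, -0.44 and -1.02. Cxcl13 gave 1.32, 1.04 and 1.38, and Ccl19 gave 0.72 in all 3. The receptors Ccr7, Cxcr3 and Ccr9 had smaller differences on scan day 2, which held 1 NZO and 2 B6 mice.

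Other settings ended some of the 9 calls. With normexp background correction the log2 fold change was 0.51 for Ccl19, 0.39 for Cxcl13, -0.51 for Ccl2, -0.26 for Cxcr3, -0.21 for Ccr7 and -0.07 for Ccr9, all under the fold threshold. In the deposited table as given, Ccl19, Cxcl13, Ccr7, Ccr9 and Cxcr3 were under it too, with log2 fold changes of 0.42, 0.42, -0.54, -0.46 and -0.698. With the slide as a fixed block, Cxcl1, Ccl2, Ccr7 and Ccr9 no longer met the p threshold. Only slide 1 held both strains, so their log2 fold changes were those within it, -2.44, -0.59, -0.88 and -1.02. Ccl2 thus also fell under the fold threshold. With the methods' test Cxcl1 did not meet the p threshold, at an unchanged log2 fold change of -2.07. Ccl19, so close to the fold threshold, also fell under it without NZO 007, NZO 009, B6 010 or B6 011. All 9 kept their direction in each of these, although it could not turn where a mouse was left out or only the test changed.

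Genes of the chemokine system whose names fall outside the rule were followed as a list of 16, of which 13 passed, 2 were higher and 0 were lower, with a median log2 fold change of -0.20 (-0.09 over the 11 above background on all 8 arrays). Of all genes tested, 5.24% were higher and 6.62% were lower. Cx3cr1, the fractalkine receptor of monocytes and macrophages, was higher in NZO by 1.45 (adjusted p = 0.0051), and Ackr1, named Darc on the array, a scavenging receptor that binds both CC and CXC ligands, by 1.17 (adjusted p = 0.00437). Both changed in the same direction as Ccr3, Cxcl13 and Ccl19, and in the opposite direction to the 6 members called lower. Ppbp, an ELR ligand of Cxcr2 from platelets, was above background on all 8 arrays and not called, with a log2 fold change of -0.63 (adjusted p = 0.0918). In the lists that follow, a gene that passed through 1 strain alone is given by the difference of the means with each array at no less than its faintest level found above background, as a description. Of 32 signalling genes below the receptors, 27 were above background on all 8 arrays. Over all genes above background on all 8 arrays, 4.55% were higher and 4.83% were lower. Of the 27, 0 were higher and 2 were lower, with a median of -0.17. These were the receptor kinases Grk3, named Adrbk2 on the array (log2 fold change -2.22), and Grk5 (-1.69), and both passed after adjustment. The Grk5 levels overlapped between the strains, with B6 015 (-0.65) below NZO 011 (-0.42). The G protein regulator Rgs1 (-1.15) and the kinase subunit Pik3r5 (-0.81) passed the filter through B6 alone.

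Of 20 genes of TNF, IL-1 and NF-kB signalling, 17 passed, 0 were higher and 5 were lower, with a median of -0.31, and all 5 passed after adjustment. The shares of all genes tested were 5.24% higher and 6.62% lower. The largest decreases were those of the NF-kB inhibitor Nfkbie (-1.82), the cytokine Il1b (-1.23), the adhesion molecule Vcam1 (-1.12) and the TNF receptor Tnfrsf1b (-0.84). Of 17 genes of the interferon gamma response, 16 passed, 1 was higher and 1 was lower, with a median of 0.15 (0.01 over the 15 above background on all 8 arrays). The GTPase Igtp was higher by 1.35, and Irf8, a transcription factor of myeloid cells, was lower by a log2 fold change of -0.75.

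**Figure D4:**
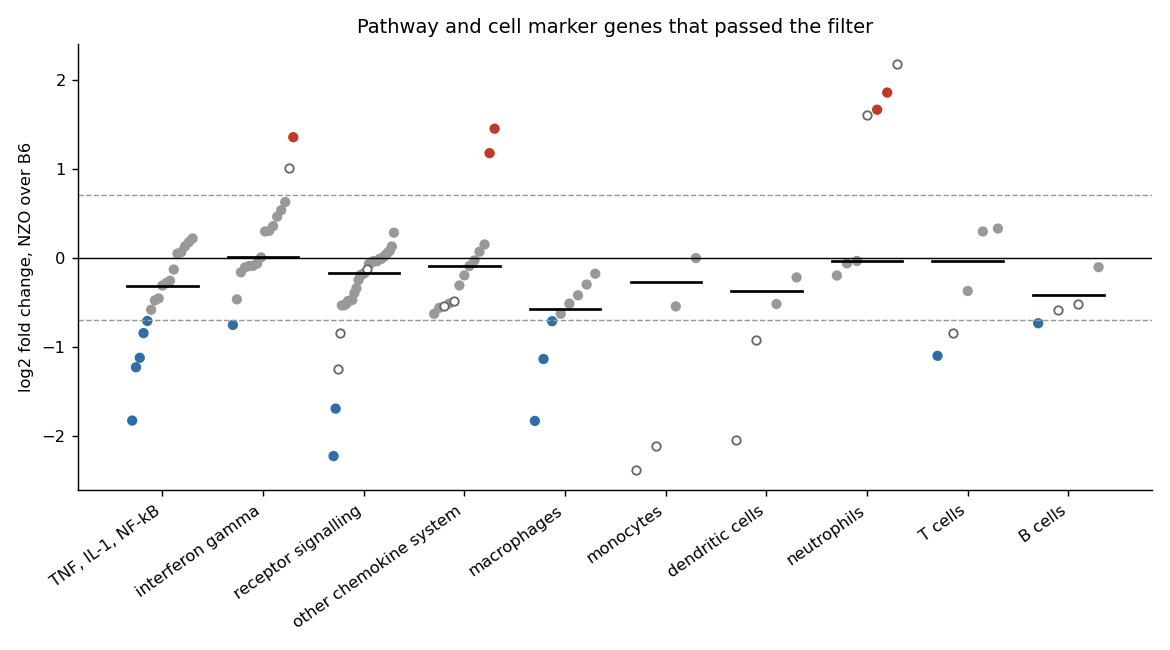
Fitted log2 fold change of NZO over B6 in 4 pathway lists and 6 lists of leukocyte markers, with filled points for genes above background on all 8 arrays (red for higher, blue for lower, grey for not called), open points for genes that passed through 1 strain alone, the black bar giving the median of the filled points and dashed lines the thresholds at -0.7 and 0.7. The median of the filled points is -0.57 for macrophage markers, -0.27 for monocyte markers and -0.03 for neutrophil markers. With the open points included it is -1.33 for monocyte markers and 1.61 for neutrophil markers.

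Some markers of the cells that carry or make chemokines were also called different, and others were not. Among all genes above background on all 8 arrays, 4.55% were higher and 4.83% were lower. Of 8 macrophage and Kupffer cell markers, 8 passed, 0 were higher and 3 were lower, with a median of -0.57. These were the scavenger receptor Marco (-1.83), the Kupffer cell lectin Clec4f (-1.13) and Cd5l (-0.71), and all 8 were above background on all 8 arrays. The log2 of the summed signal of the list's probes, in which Cd5l had the brightest probe, was compared between mice only. It was 7.14, 7.16, 6.88 and 6.95 in NZO 003, 007, 009 and 011, and 7.49, 7.61, 7.81 and 8.08 in B6 009, 010, 011 and 015. The sum was lower in every NZO mouse, and highest in B6 015 and 011, the mice with high Cxcl1 and Ccl2. Of 4 monocyte markers, the 2 above background on all 8 arrays were not called and had a median of -0.27. Over all 4, which passed, the median was -1.33. Chil3, named Chi3l3 on the array (-2.11), and F13a1 (-0.75) passed the filter through B6 alone and were above background in 3 and 1 of the 4 NZO mice. The summed level, with the brightest probe that of Plac8, ran from 2.29 to 2.77 in NZO and from 2.31 to 2.88 in B6. Of 4 dendritic cell markers, the 2 above background on all 8 arrays were not called and had a median of -0.37. Over all 4, which passed, the median was -0.72. Itgax (-1.75) and Flt3 (-0.56) passed through B6 alone. The summed levels, with the brightest probe that of Siglech, ran from 6.34 to 7.25 in NZO and from 6.96 to 7.32 in B6. Both summed levels overlapped between the strains.

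Of 6 T cell markers, 5 passed, with a median of -0.37 (-0.04 over the 4 above background on all 8 arrays). Cd3d was lower (-1.10), Cd3g (-0.76) passed through B6 alone, and Lck, Cd3e and Cd4 were not called, with log2 fold changes of -0.37, 0.33 and 0.30. Its summed level, with the brightest probe that of Cd4, ran from 4.29 to 5.21 in NZO and from 4.14 to 4.59 in B6. Of 4 B cell markers that passed, of 5, Cd79b was lower (-0.73) and the median was -0.55 (-0.42 over the 2 above background on all 8 arrays), with summed levels from -0.33 to 0.23 in NZO and from 0.18 to 0.65 in B6, and Ighm was at background on all 8 arrays. Of 5 NK cell markers, 2 passed and 0 were called, and Ncr1 was at background on all 8 arrays. The receptors Ccr7 and Cxcr3 are carried by T cells, and the part of T cell number in their levels was not tested.

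Of 7 neutrophil markers, 5 were above background on all 8 arrays, of which 2 were higher and 0 were lower, with a median of -0.03. Over all 7, which passed, the median was 1.61, but 2 of them passed through NZO alone. The granule protein Camp (1.85) and the surface marker Ly6g (1.66) were higher in NZO, also after adjustment, while S100a8 (-0.03), S100a9 (-0.20) and Retnlg (-0.06) were not called. The granule proteins Mpo (1.61) and Ltf (1.32) passed the filter through NZO alone, with 2 of the 4 B6 mice above background, and their levels overlapped between the strains. The summed level, with the brightest probe that of S100a9, was 3.69, 3.30, 3.28 and 3.71 in NZO 003, 007, 009 and 011, and 2.37, 1.97, 3.26 and 3.50 in B6 009, 010, 011 and 015. It was thus high in B6 011 and 015 and low in B6 009 and 010, the same order of B6 mice as for Cxcl1, and its part in the Cxcl1 levels was not tested. No marker of eosinophils, the main carriers of Ccr3, was in the lists.

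Among the other cell markers, sinusoidal endothelial cells had 0 called of 6 and exocrine pancreas 0 of the 2 that passed, with summed levels that overlapped between the strains in both and with Cela3b, Pnlip, Cpa1 and Prss2 at background on all 8 arrays. Adipocyte markers had 0 called of the 3 that passed, with Adipoq, Plin1 and Lep at background on all 8, and their summed level, with the brightest probe that of Car3, ran from 9.14 to 9.33 in NZO and from 8.68 to 8.91 in B6. Stellate cells had 1 lower of 6, Col3a1 (-0.80), with summed levels from 5.55 to 5.85 in NZO and from 6.06 to 6.18 in B6. Biliary epithelium had 2 lower of the 3 above background on all 8 arrays, Sox9 (-1.47) and Spp1 (-0.89), and Krt7 (-0.74) passed through B6 alone, with summed levels from 0.77 to 1.35 in NZO and from 1.79 to 2.46 in B6. Red blood cell markers had 3 higher of 4, Hba-a1 (1.00), Alas2 (0.90) and Hbb-b1 (0.81), of which 2 passed after adjustment. Their summed levels ran from 8.19 to 8.88 in NZO and from 7.28 to 7.70 in B6. The sums of the adipocyte, stellate, biliary and red blood cell lists did not overlap between the strains, and their part in the members' levels was not tested. The hepatocyte sum ran from 11.89 to 11.94 in NZO and from 11.55 to 11.88 in B6, likewise without overlap. Skeletal muscle had 0 called of the 3 that passed. All 3, Acta1 (-0.76), Myh4 (-1.42) and Tnnt3 (-0.33), passed through B6 alone.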

How the data were processed

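Total RNA of whole liver was hybridised to 1-colour (Cy3) Agilent arrays, 1 per mouse. The authors deposited the scanner intensity of each array and a table of the series whose values equalled the raw median intensity for 59305 of 59305 spots per array (tolerance 0.01). The labels name Agilent Feature Extraction 9.1, whereas the file headers give 11.0.1.1 and mm9 positions. The processed signal, which is background-subtracted, was used. Control spots were removed, as were the 96 to 137 spots marked as outliers on each array, the 75th percentile was subtracted on the log2 scale, spots of a probe were averaged, and a probe was taken as above background where over 50% of its spots were. The median signal was 1.72 to 2.0 times the local background, which limits low levels, and 4 arrays per strain limit the precision.

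The strains were compared without a block, at the thresholds of the methods, with the limma package (3.58.1) under R 4.3.3. In values simulated from the variance of each gene, a planted log2 change of 1 was called in 90% of 100 genes and one of 2 in 99%, among 20151 genes. With adjusted p-values the shares were 60% and 89%. The simulated arrays were independent of each other. A fold against mice that were all at background is a lower bound, for which the dim mice take the larger of their own signal and the faintest detected signal of their array. The values of 1 passing member are not reported here, though its counts are included. Every other passing member was named, each mouse's value was given for called members and their partners in a list of ligand and receptor pairs, which set Ccl11 and Ccl24 with Ccr3, and up to 4 called genes per other list and direction were named. The members, lists and tests were chosen with earlier results of these data known. The alternatives were normexp (offset 50), quantile normalization, the deposited table, no filter, the mean over probes, genes by the mouse gene table, slide, scan day or mouse number as a block, the methods' test with Welch correction, and leaving out each mouse. Promoter stretches were taken from RefSeq (GRCm38.p6).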

Additional observations from a re-analysis of the deposited data

Results flagged for a closer look

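In 6 of 52 groups of 4 mice (26 members in 2 strains), 1 mouse lay farther from the rest of its strain than the 95% limit of Dixon's test. Chance alone gives this in about 1 in 20 independent groups. These groups were not independent, since all 26 members were read in the same mice, so the share cannot be set against that rate. B6 015 was the high mouse in 4 of them, with log2 levels of 2.61 for Cxcl9, 2.05 for Ccl5, 2.21 for Ccl6 and -1.13 for Cxcr3. NZO 007 was high in the other 2, at 0.92 for Ccl24 and -0.34 for Ccr3.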

How the results depend on the processing

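All 9 called members kept their direction under all 19 alternatives. Where a mouse was left out the direction could not turn, since the strains did not overlap in these members. Ccr3 also kept its call under all 19. Calls were lost most often for Ccl19, in 7 of 19, and Ccr9, in 4. The members higher in NZO, 3 as reported, were 1 with normexp background correction, 1 with the deposited table as given, 6 with no filter on dim probes (Ccl28, Ccr1l1 and Cxcr1 in addition) and 2 to 3 without each mouse in turn. The members lower in NZO, 6 as reported, were 2 with normexp background correction, 2 with the slide as a fixed block, 5 with the deposited table (Ccl25 and Cxcl9 in addition, without Ccr7, Ccr9 and Cxcr3), 8 with no filter (Ccl7 and Cxcr5 in addition) and 6 without each mouse in turn. Over all genes, normexp called 505 higher and 471 lower, against 1057 and 1334, the slide as a fixed block called 1283 and 1864, no filter called 1465 and 1696 of 34836, leaving out each mouse called 1020 to 1136 and 1240 to 1497, and the deposited table called 468 and 1140, with 29.1% of its calls higher against 44.2%. In that table the median log2 fold change of all genes was -0.15, against 0.03. With the mouse number as a replicate block, 1 member was higher and 5 were lower, with 0 passing adjustment in either direction, and 53 and 67 of all genes passing (1290 and 1719 called without adjustment). Only 2 numbers were shared, of different animals, and their deviations correlated at -0.26 and 0.0050, so the numbers did not pair the mice. After adjustment, 3 to 5 members were lower without each mouse, with 3 without NZO 009 or B6 011, and 1 was higher without NZO 007, NZO 009 or B6 010. With only the genes above background on all 8 arrays, a setting chosen after seeing the data, 2 members were higher and 5 lower. Members above background numbered 23 on all 8 arrays and 37 on at least 1. The causes were not tested. A member at background was not detectable, which does not show its absence.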
